A study of Mus musculus with 6 samples.

Results

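The genes described here are 33 genes of the lysosome, of 55536 genes listed per library, chosen by name and matched by Ensembl identifier to GENCODE M21 gene names. They comprise 9 cathepsins, 9 genes of glycan digestion of which 1 is a sulfatase, 6 genes of lipid and protein digestion, 7 genes of lysosomal membrane proteins and 2 transcription factors that control lysosomal genes. The rule that chose them uses names and no threshold on expression, although earlier results of these data were known. RNA was sequenced from SVEC4-10, an immortalised mouse line labelled as endothelial and grown in medium with fetal bovine serum. The control group holds 3 libraries of cells without treatment, also labelled 24 hours. The other 3 libraries are of cells kept for 24 hours with nattokinase, a serine protease of fermented soybean that degrades fibrin. The labels used here state no dose of nattokinase, and none describes a vehicle for the untreated dishes. All 6 libraries come from 1 cell line, and whether replicates were grown as separate cultures is not stated. The p-values therefore cover the spread among these 6 libraries alone, and that spread may be technical.

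Lysosomes are acidic compartments in which hydrolases break down proteins, glycans and lipids delivered by endocytosis and autophagy. Most of the hydrolases are tagged with mannose 6-phosphate in the Golgi and carried to the lysosome by receptors, and a few arrive by other routes, among them the receptor encoded by Scarb2. The MiT/TFE transcription factors, which include TFEB and TFE3, bind a short palindrome in the promoters of many lysosomal genes, and the kinase complex mTORC1 holds them in the cytoplasm when nutrients are plentiful. Endothelial cells and fibroblasts both carry many lysosomes.

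Between 15044778 and 18341370 reads per library were assigned to genes, and values are given as FPKM, which scales reads to the exon length of the gene and to the assigned reads of the library. A count of 3 reads on 2 kb of exons is worth 0.0818 to 0.0997 FPKM, depending on the library. Endothelial identity was not visible in a list of 12 markers, of which 0 reached 1 FPKM in any library and 4 had 0 reads in all 6 (Tie1, Erg, Cldn5 and Emcn), whereas Pecam1 had at most 3 reads. Of 11 fibroblast and mural markers 6 could be tested, and of 8 epithelial markers 2. In the fibroblast and mural list Thy1 had 0 reads in all 6 libraries. Lum, Fap, Rgs5 and Cspg4 of that list had at most 10 reads in any library. The summed level of the fibroblast and mural list was 2067 to 2215 FPKM in the controls and 1849 to 1920 FPKM with nattokinase, with Col3a1 called lower. Most of that difference was Col1a1, at 1403 ± 67.3 and 1236 ± 36.2 FPKM (SD, n = 3 each) and not called. The list did not move one way, since 3 of its 6 tested genes had positive values, among them Pdgfra and Pdgfrb, whose groups did not overlap and which were not called. The 18S-like gene CT010467.1 took 1.85% to 2.89% of assigned reads in the controls and 0.525% to 0.610% with nattokinase. The 18S-like share and the summed fibroblast level differed between the groups in every comparison below. Their part in the results was not tested, apart from the rescaling to protein-coding totals.

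After 24 hours with nattokinase the lysosomal genes split, with a small number higher, 2 lower and most without a detected difference. Cd68, Ctsa, Lamp2, Cd63 and Tpp1 were higher, and Scarb2 and Sgsh were lower. Among the genes called, the largest relative differences were those of Cd68, a heavily glycosylated membrane protein gene known from macrophages, at 2.03 times its control mean, and Scarb2, which encodes LIMP-2, at 0.704 times. Lamp1, the most abundant lysosomal membrane protein gene here, and Psap, the most abundant member, differed by less than the test could call. A gene was tested where it had at least 1 FPKM in at least 3 libraries, which 28 of the 33 genes did. Cd68 met this only with the nattokinase libraries, since 1 control was under 1 FPKM.

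Of the 28 tested genes 5 rose and 2 fell by limma on log2(FPKM + 1) at a Benjamini-Hochberg adjusted p of 0.05 over 10913 genes. That is 25% of the tested genes, beside 8.85% of all genes tested, and 17.9% higher and 7.14% lower beside 5.61% and 3.24%. The members were chosen with earlier results of these data known. Among 155 other tested genes of the lysosome, described below, 3.23% were called. The median log2 fold change was 0.05 over these 28 genes and 0.01 over all genes tested. The remaining 21 genes had log2 fold changes between -0.07 and 0.17, and their 95% intervals lay between -0.24 and 0.32. Leaving out nattokinase replicate 2 left 2 genes that rose, and leaving out control replicate 2, control replicate 3 or nattokinase replicate 3 left 3. With no filter on expression 0 rose by limma, the 5 genes then having adjusted p of 0.063 to 0.17. The number that fell was 1 when any 1 library was left out or no filter was used.

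**Figure D1:**
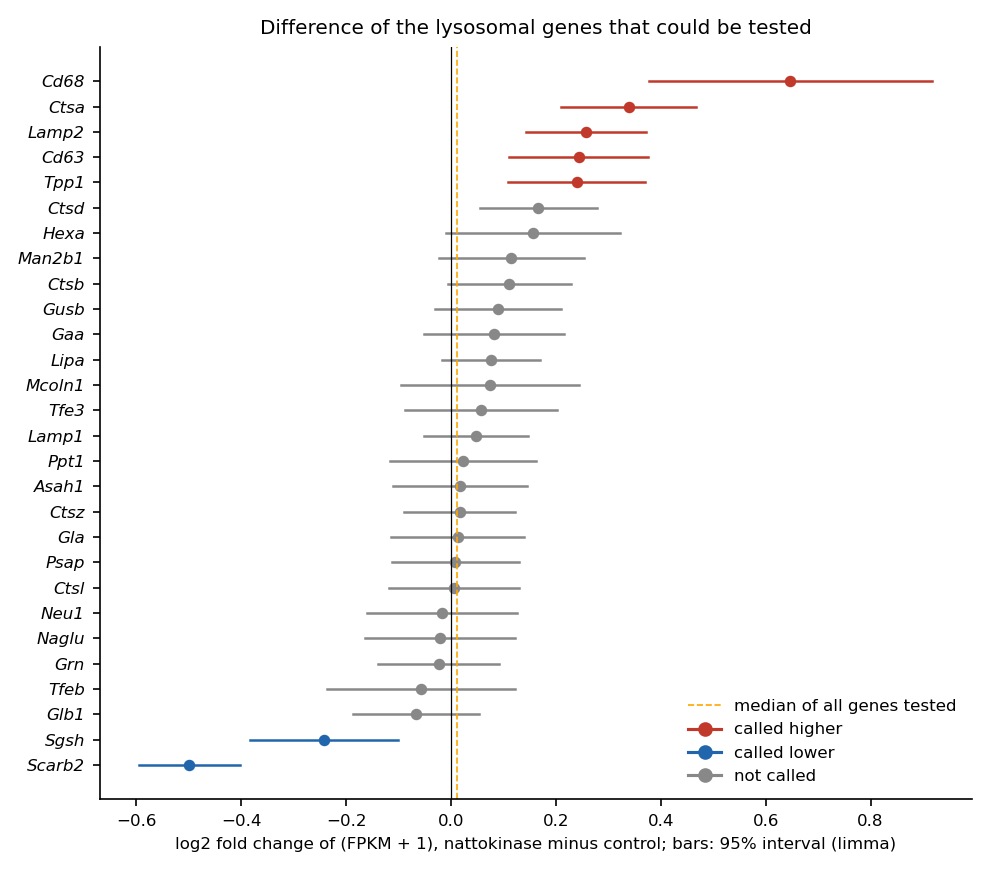
Difference of the 28 tested lysosomal genes between nattokinase and control libraries, as the log2 fold change of FPKM + 1 (points) with its 95% interval from limma (bars). The 5 genes called higher run from 0.24 to 0.65, the 2 called lower lie at -0.24 and -0.50, and the dashed line marks the median of all genes tested at 0.01.

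Levels differed widely among the 33 genes. Psap, whose product is cut into the saposin cofactors of sphingolipid digestion, had the highest mean over the 6 libraries at 398 ± 14.5 FPKM (SD, n = 6), followed by Lamp1 at 208 ± 4.81 and the tetraspanin gene Cd63 at 168 ± 17.1 FPKM. The ranges of these 3 genes did not overlap each other. Next came Ctsz, Ctsb and Ctsl at 88.0, 86.7 and 82.5 FPKM, and their ranges overlapped. Among the tested genes Sgsh at 3.55 FPKM and Cd68 at 1.80 FPKM were the lowest. The 5 genes not tested were 4 cathepsins and Gpnmb.

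**Figure D2:**
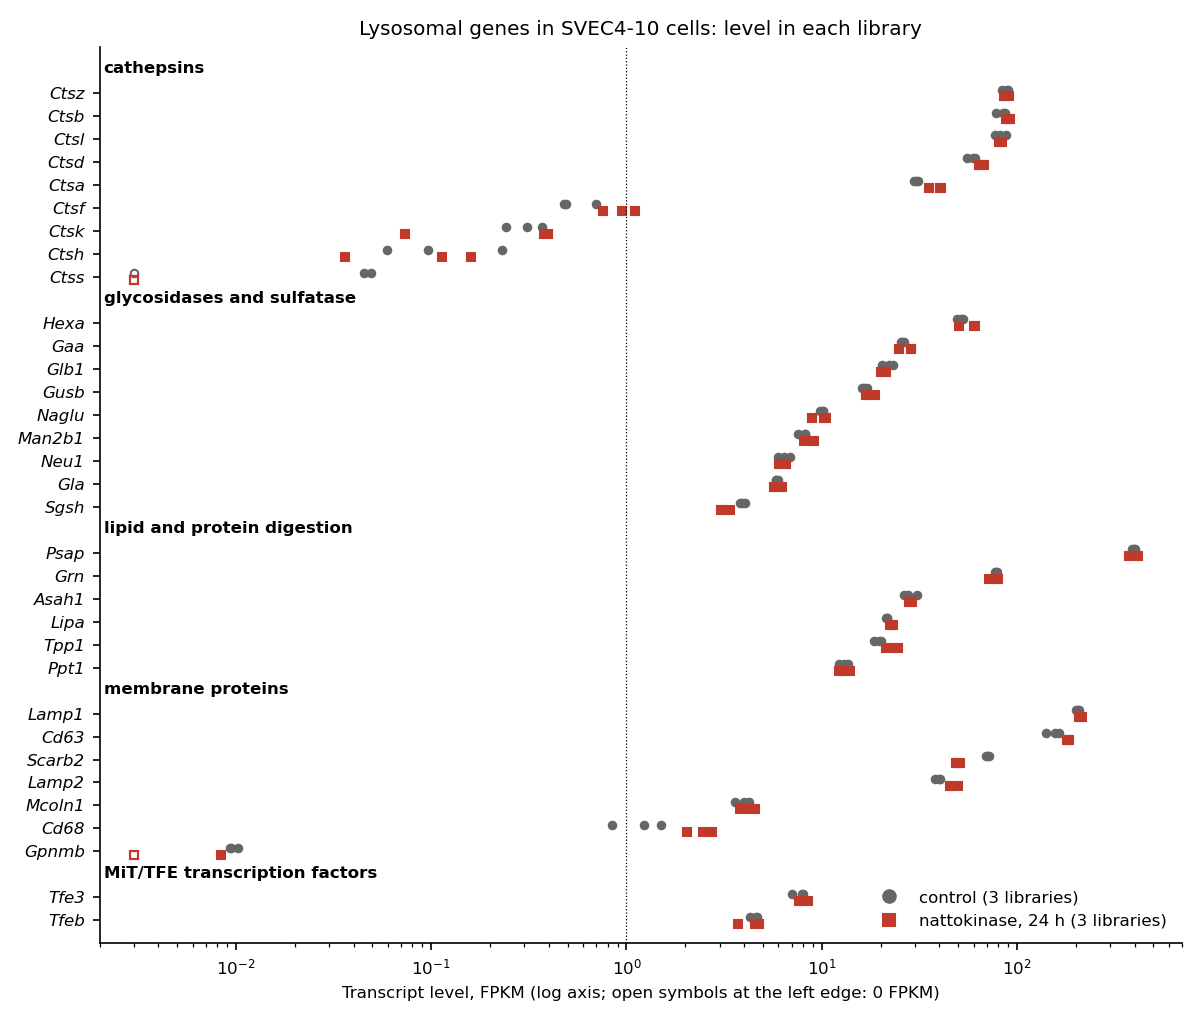
Level of each of the 33 lysosomal genes in each library, in FPKM on a log axis, grouped by role (grey circles: 3 control libraries, red squares: 3 nattokinase libraries, open symbols: 0 FPKM, dotted line: 1 FPKM). The groups overlap for most of the tested genes, and Scarb2, Sgsh and Cd68 are among the 11 of 28 whose groups do not.

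Neither of the transcription factors of the set passed the test. Tfeb had 4.31, 4.68 and 4.62 FPKM in the controls and 4.54, 3.72 and 4.75 FPKM with nattokinase, with a log2 fold change of -0.06 (SE 0.080, adjusted p = 0.73). Tfe3 had 7.05, 8.003 and 7.93 FPKM in the controls and 7.60, 8.49 and 7.93 FPKM with nattokinase, with a log2 fold change of 0.06 (SE 0.065, adjusted p = 0.67). The groups overlapped for both. Their proteins are known to be controlled mainly by phosphorylation and location in the cell, which RNA levels do not measure.

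The promoters of many members carry the letters that these factors are known to bind. Promoter windows from 250 bases before to 50 after the annotated start were found for 30 of the 33 genes in RefSeq (GRCm38.p6). They were searched on both strands for the E-box CACGTG, for the E-box preceded by T, TCACGTG, and for the CLEAR element, an E-box with GT before and AC after it. Both longer strings contain the E-box, which is its own reverse complement. The E-box was found in 11 of the 30 genes (36.7%) and in 8.09% of all 27025 genes with a window, tested here or not. The share over tested genes alone was not computed. TCACGTG was found in 9 of 30 (30.0%) beside 4.29%. The CLEAR element, in the exact form given above, was found in 0 of 30 beside 0.370%. Forms that differ from it by a letter or more were not counted as CLEAR elements. With so low a share among all genes, 30 members are too few to show whether they carry the exact form more or less often. The stretches are shown because they let members that carry the same letters be set beside their values. Those of Gla and Ctsl and the distal stretch of Ctsd are not shown. Capitals mark the E-box, up to 12 bases are given on each side, each is read 5′ to 3′ on the strand of the gene, and none extends past the RefSeq start. Starts differ between annotations, and the stretches of Ctsa, Ctsd, Mcoln1, Naglu and Sgsh lie wholly or partly in exons of those genes in GENCODE M21.
Lamp1, chr8:13159088-13159160, plus strand: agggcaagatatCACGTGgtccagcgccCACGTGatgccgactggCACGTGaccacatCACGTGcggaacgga
Mcoln1, distal, chr8:3500436-3500465, plus strand: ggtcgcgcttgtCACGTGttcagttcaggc
Mcoln1, proximal, chr8:3500462-3500491, plus strand: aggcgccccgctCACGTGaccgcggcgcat
Ctsd, chr7:142387908-142387937, minus strand: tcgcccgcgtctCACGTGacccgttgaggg
Ctsa, chr2:164833749-164833772, plus strand: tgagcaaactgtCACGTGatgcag
Glb1, chr9:114401018-114401047, plus strand: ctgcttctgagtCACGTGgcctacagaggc
Naglu, chr11:101070009-101070038, plus strand: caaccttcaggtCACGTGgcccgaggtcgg
Gaa, chr11:119267811-119267840, plus strand: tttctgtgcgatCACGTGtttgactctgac
Sgsh, chr11:119355522-119355551, minus strand: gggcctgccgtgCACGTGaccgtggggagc
Ctsf, chr19:4855074-4855103, plus strand: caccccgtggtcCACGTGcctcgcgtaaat
Lamp1 had 4 E-boxes within its last 61 bases before the start, more than any other member. Ctsd, Gla, Ctsa and Mcoln1 had 2 each, and 1 of those of Ctsa lies past the start. Glb1, Naglu, Gaa, Sgsh, Ctsf and Ctsl had 1 each.

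Genes with an E-box did not move one way. Of the 10 tested genes with one, Ctsa rose and Sgsh fell, and the median log2 fold change was 0.03. Of the 16 tested genes with a window and no E-box, 4 rose and 1 fell, and the median was 0.07. Lamp1, with 4 E-boxes, had 201, 205 and 208 FPKM in the controls and 209, 212 and 215 FPKM with nattokinase (log2 fold change 0.05, adjusted p = 0.58). The nattokinase libraries lay above the controls in each case, by less than the test could call. A match of letters is not evidence that a factor was bound, and no binding was measured here.

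**Figure D3:**
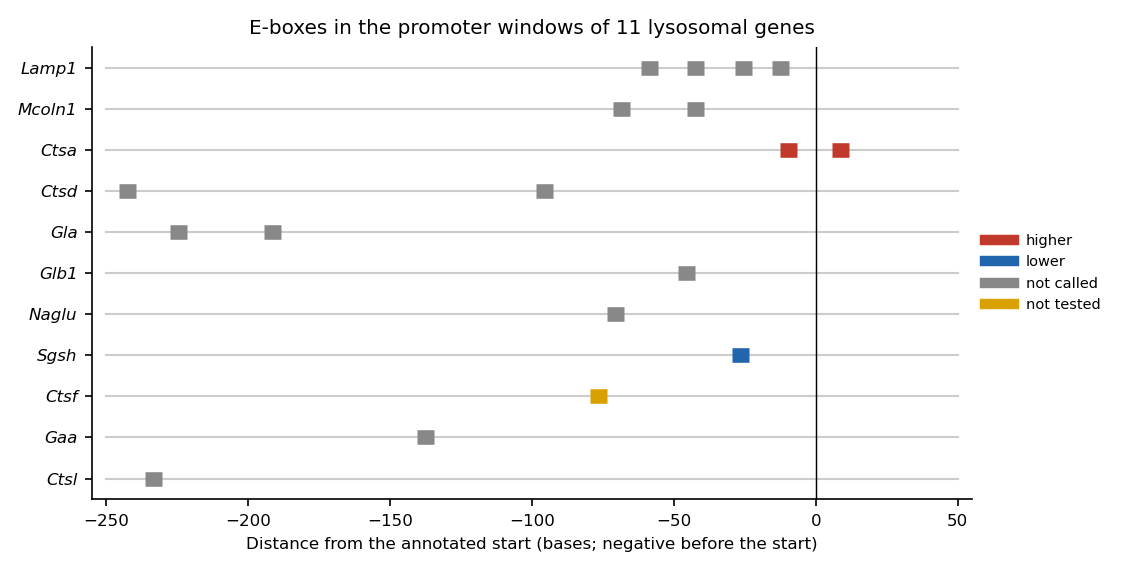
Position of each E-box in the promoter windows of the 11 lysosomal genes that have one, in bases from the annotated start, coloured by the call of the gene in the comparison. Lamp1 carries 4 and is not called, Ctsa with 2 is higher, and Sgsh with 1 is lower.

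Cathepsins are the main lysosomal proteases, and 1 of the 5 that could be tested rose, beside 5.61% of all genes tested. Ctsa, a serine carboxypeptidase that also protects neuraminidase and beta-galactosidase in a complex (chromosome 2, 164832873 to 164841032, GRCm38), had 29.6, 31.1 and 30.5 FPKM in the controls and 35.5, 40.3 and 40.6 FPKM with nattokinase. All nattokinase libraries were above all controls, at 1.28 times the control mean (log2 fold change 0.34, SE 0.058, limma adjusted p = 0.0058). The E-box of Ctsa shown above begins 12 bases before a RefSeq start that lies inside these gene bounds, within an exon of Ctsa in GENCODE. Exons of Ctsa overlap those of Pltp and Neurl2, and reads of such genes cannot be told apart without stated strand use. Pltp had 11.3 ± 0.83 and 10.9 ± 0.95 FPKM (SD, n = 3) in control and nattokinase libraries, and Neurl2 had 1.66 ± 0.14 and 1.93 ± 0.39 FPKM. Neither of these neighbours was called.

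The aspartic protease gene Ctsd came next. It had 55.7, 60.8 and 59.8 FPKM in the controls and 63.8, 66.4 and 68.1 FPKM with nattokinase, so that the groups did not overlap (log2 fold change 0.17, 95% interval 0.06 to 0.28, limma adjusted p = 0.072). It passed with limma-voom on the reads recovered from the FPKM (adjusted p = 0.037). The cysteine protease gene Ctsb had 78.1, 87.3 and 84.7 FPKM in the controls and 87.7, 89.9 and 92.5 FPKM with nattokinase, without overlap (adjusted p = 0.24). Its exons overlap those of Fdft1, which was called lower (log2 fold change -0.45, adjusted p = 0.0024). Groups did not overlap in 11 of the 28 tested genes (39.3%), beside 28.8% of all genes tested.

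The cysteine protease genes Ctsl and Ctsz differed little. Mean levels of Ctsl were 82.4 ± 5.71 and 82.6 ± 1.52 FPKM in control and nattokinase libraries (SD, n = 3 each; log2 fold change 0.01, 95% interval -0.12 to 0.13). Ctsz had 87.5 ± 3.3 and 88.5 ± 2.4 FPKM (log2 fold change 0.02, 95% interval -0.09 to 0.12). Ctsf, another cysteine protease gene, was too low to be tested, with 37 to 102 reads per library. It had 0.477, 0.488 and 0.697 FPKM in the controls and 0.759, 0.951 and 1.10 FPKM with nattokinase, without overlap. With the filter at 0.5 FPKM it could be tested and was not called (adjusted p = 0.12). Ctsk, the collagen-degrading cathepsin of osteoclasts and fibroblasts, had 2 to 11 reads per library, Ctsh had 3 to 17, and Ctss, the cathepsin of antigen-presenting cells, had 0 or 1.

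Among genes that digest glycans 1 of 9 fell and 0 rose (1 lower and 0 higher at an unadjusted limma p under 0.05, and by limma-voom). Over all genes tested 3.24% fell and 5.61% rose, and the share at an unadjusted p was not counted. The heparan sulfate sulfamidase gene Sgsh (chromosome 11, 119343425 to 119355536) had 4.05, 3.82 and 3.91 FPKM in the controls and 3.09, 3.05 and 3.37 FPKM with nattokinase. All nattokinase libraries were below all controls, at 0.807 times the control mean (log2 fold change -0.24, SE 0.063, limma adjusted p = 0.042). This call was lost when any 1 of the 6 libraries was left out (adjusted p 0.065 to 0.16). Its exons overlap those of Card14, which had at most 4 reads in any library.

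Hexa, which encodes the alpha chain of beta-hexosaminidase for ganglioside breakdown, had 49.0, 51.6 and 52.9 FPKM in the controls and 50.2, 60.5 and 61.3 FPKM with nattokinase. Nattokinase replicate 1 lay within the control range and the other two above it (log2 fold change 0.16, adjusted p = 0.25). Without that library Hexa was called higher (log2 fold change 0.25, limma adjusted p = 0.026). The other glycosidase genes had overlapping groups. Their log2 fold changes were 0.11 for Man2b1, which trims mannose, 0.09 for Gusb, which encodes beta-glucuronidase, and 0.08 for Gaa, which digests glycogen. They were 0.01 for Gla, which encodes alpha-galactosidase, -0.02 for the sialidase gene Neu1, -0.02 for Naglu and -0.07 for Glb1, which encodes beta-galactosidase. The adjusted p of these 7 genes was 0.31 or more. Neu1 and Glb1 encode the partners that the Ctsa product protects, and neither was called while Ctsa was.

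In lipid and protein digestion 1 of 6 genes rose, beside 5.61% of all genes tested. Tpp1, a tripeptidyl peptidase whose loss causes a neuronal storage disease (chromosome 7, 105744811 to 105752235), had 18.5, 19.7 and 20.01 FPKM in the controls and 21.5, 23.1 and 24.7 FPKM with nattokinase. The groups did not overlap, and the mean was 1.19 times that of the controls (log2 fold change 0.24, SE 0.058, limma adjusted p = 0.032). Without nattokinase replicate 1 the call was kept, and it was lost without any 1 of the other libraries (adjusted p up to 0.12) and with FPKM scaled to protein-coding reads (adjusted p = 0.053).

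The remaining genes of this group did not pass. Lipa, the acid lipase that frees cholesterol from lipoprotein esters, had 21.5, 21.2 and 21.7 FPKM in the controls and 22.5, 22.6 and 23.0 FPKM with nattokinase, without overlap (log2 fold change 0.08, adjusted p = 0.32). Psap had 404, 399 and 388 FPKM in the controls and 376, 405 and 417 FPKM with nattokinase, and the control values lay inside the nattokinase range. Grn, the progranulin gene, had 78.1 ± 0.67 and 76.9 ± 4.62 FPKM (SD, n = 3 each). The ceramidase gene Asah1 had 28.2 ± 2.17 and 28.5 ± 0.494 FPKM, and the thioesterase gene Ppt1 had 12.9 ± 0.672 and 13.1 ± 0.917 FPKM. Exons of Ppt1 overlap those of Cap1, which was called higher (log2 fold change 0.20, adjusted p = 0.018).

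Among membrane protein genes 3 of the 6 tested rose and 1 fell, beside 5.61% and 3.24% of all genes tested. Scarb2, which encodes LIMP-2, the receptor that carries glucocerebrosidase to the lysosome (chromosome 5, 92441314 to 92506833), had 70.9, 69.0 and 72.3 FPKM in the controls and 50.9, 49.0 and 49.4 FPKM with nattokinase. The control libraries all lay far above the nattokinase libraries, with 5396 to 7491 reads per library behind the values. The fall was the firmest result of the set (log2 fold change -0.50, SE 0.043, limma adjusted p = 0.00017). It was called in 15 of 15 alternative settings, with log2 fold changes between -0.53 and -0.48. No CACGTG was found in the RefSeq window of Scarb2, which lies inside the gene bounds given here and does not cover their 5′ end.

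Lamp2, whose product is needed for lysosomes to fuse with autophagosomes (chromosome X, 38401357 to 38456454), had 39.7, 37.9 and 40.3 FPKM in the controls and 45.3, 49.99 and 46.2 FPKM with nattokinase. The groups were apart, at 1.2 times the control mean (log2 fold change 0.26, SE 0.051, limma adjusted p = 0.012). The call was lost without control replicate 2 (adjusted p = 0.056) and without nattokinase replicate 2 (adjusted p = 0.059). Its close relative Lamp1, with an interval of -0.05 to 0.15, was not called, and the difference between the 2 genes was not tested.

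The tetraspanin gene Cd63, a marker of late endosomes and of the exosomes released from them (chromosome 10, 128900989 to 128912822), had 141, 163 and 157 FPKM in the controls and 179, 182 and 184 FPKM with nattokinase. Control replicate 1 was the lowest library, and all nattokinase libraries were above all controls (log2 fold change 0.24, SE 0.059, limma adjusted p = 0.031). The call was lost without control replicate 3 or without any 1 nattokinase library (adjusted p 0.062 to 0.12).

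Cd68 (chromosome 11, 69664213 to 69666153) had 1.23, 0.846 and 1.49 FPKM in the controls and 2.47, 2.04 and 2.73 FPKM with nattokinase, from 16 to 63 reads per library. The groups did not overlap, at 2.03 times the control mean (log2 fold change 0.65, SE 0.12, limma adjusted p = 0.0094). Cd68 passed the filter on expression only with the nattokinase libraries, and with no filter it was not called (limma adjusted p = 0.095). The log2 scale with a pseudocount of 1 understates the change of a gene this low, and with a pseudocount of 0.1 the value was 0.99. Cd68 is widely used as a macrophage marker. Of 14 macrophage and leukocyte markers 8 had 0 reads in all 6 libraries, among them Ptprc, Adgre1, Itgam, Tyrobp and Spi1. The summed level of that list was 5.23 to 6.46 FPKM in the controls and 6.24 to 6.91 FPKM with nattokinase, and most of it was Cd14, which was not called. Aif1, another gene of macrophages, had 2 to 5 reads in the controls and 7 to 11 with nattokinase, at 0.149 ± 0.0579 and 0.352 ± 0.0855 FPKM (SD, n = 3 each), without overlap and too low to be tested. The other 4 markers had at most 11 reads in any library and overlapping groups. Their part in the Cd68 result was not tested.

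Mcoln1, the calcium channel gene of the lysosomal membrane, had means of 3.95 ± 0.33 and 4.22 ± 0.36 FPKM in control and nattokinase libraries (SD, n = 3 each; adjusted p = 0.62). Gpnmb, a glycoprotein gene that is strongly raised in lysosomal stress of macrophages, had 0 or 1 read per library. The promoters of Lamp2 and Cd68 are shown as those of members that rose without an E-box in the window. The 150 bases before the start are given, read on the strand of the gene, with capitals for the GC box GGGCGG and the AP-1 site TGACTCA on either strand. Both motifs were chosen after the values were seen.
Lamp2, chrX:38456461-38456610, minus strand: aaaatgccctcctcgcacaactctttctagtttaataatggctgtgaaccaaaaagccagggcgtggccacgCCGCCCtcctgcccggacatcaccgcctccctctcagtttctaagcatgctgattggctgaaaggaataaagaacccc
Cd68, chr11:69666171-69666320, minus strand: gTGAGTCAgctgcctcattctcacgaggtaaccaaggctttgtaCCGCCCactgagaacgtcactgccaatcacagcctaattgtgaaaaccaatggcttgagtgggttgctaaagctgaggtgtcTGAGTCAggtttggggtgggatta
Lamp2 had 1 GC box here and Cd68 had 1 GC box and 2 AP-1 sites. In the full windows a GC box was found in 20 of 30 members beside 38.2% of all genes, and an AP-1 site in 5 of 30 members beside 5.95%. Both shares are over all genes with a window, tested here or not, and shares over tested genes alone were not computed. Of the 18 tested members with a GC box 2 rose and 2 fell (median log2 fold change 0.015). Of the 8 without one 3 rose and 0 fell (median 0.086). Of the 4 with an AP-1 site 1 rose and 0 fell (median -0.004). Of the 22 without one 4 rose and 2 fell (median 0.066). The same splits over all genes were not computed.

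**Figure D4:**
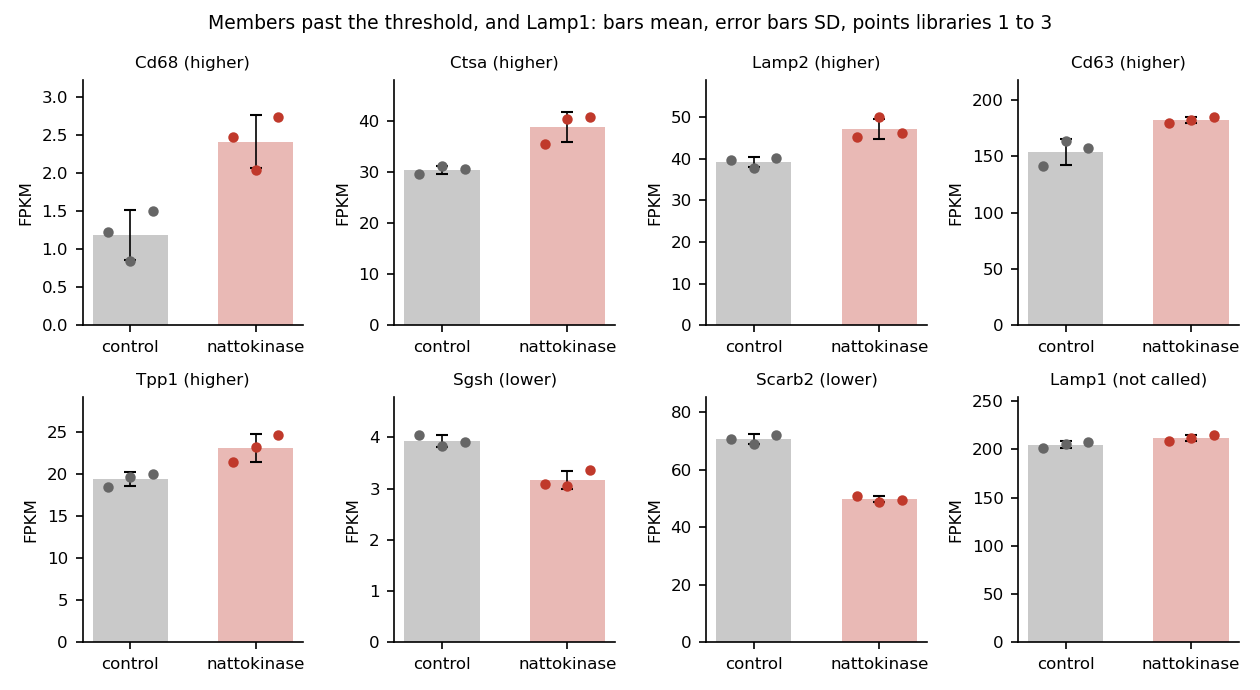
FPKM of the 7 lysosomal genes called in the comparison, and of Lamp1, in control (grey) and nattokinase (red) libraries, with bars for the mean, error bars for the SD and points for libraries 1 to 3. Scarb2 shows the widest separation relative to its spread, and Cd68 the largest relative difference at the lowest level.

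The members also shared a pattern within the groups. Nattokinase replicate 3 was the highest of its group for 22 of the 28 tested genes (78.6%), beside 31.6% of all genes tested. Nattokinase replicate 1 was the lowest of its group for 19 of 28 (67.9%), beside 34.9% of all genes. Among the controls, replicate 1 was the lowest for 16 of 28 (57.1%), beside 43.6% of all genes. Control replicate 3 was the highest for 13 of 28 (46.4%), beside 35.6% of all genes. Summed over the 33 genes, lysosomal transcripts took 0.564% to 0.587% of assigned reads in the controls and 0.580% to 0.616% with nattokinase, and the groups overlapped. Of reads on protein-coding genes they took 0.602% ± 0.0094 and 0.611% ± 0.019 (SD, n = 3 each), with nattokinase replicate 1 below every control.

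Other genes of the lysosome were described from 8 lists covering 182 genes. Of the 155 that could be tested 4 rose and 1 fell, which is 3.23% beside 8.85% of all genes, and the median log2 fold change was 0.02. By limma-voom 872 of all 10913 genes tested were higher and 462 lower. Counts at an unadjusted p under 0.05 are given below without the share of all genes, which was not counted. Of 28 other hydrolases and cofactors 0 rose and 1 fell (3 and 1 at an unadjusted limma p under 0.05, and 0 and 1 by limma-voom). The gene that fell was Naaa, an acid amidase, from 13.1 ± 0.39 to 11.4 ± 0.11 FPKM (adjusted p = 0.042). Hyal2, a hyaluronidase gene, and Dpp7, a dipeptidyl peptidase gene, had log2 fold changes of 0.16 and 0.17 and did not pass.

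Membrane transport, acidification and delivery gave a small number of calls. Over all genes tested 5.61% rose and 3.24% fell. Of 24 other membrane proteins and transporters 2 rose and 0 fell (3 and 2 at an unadjusted limma p under 0.05, and 2 and 1 by limma-voom). Tmem106b, a regulator of lysosome size, rose from 8.10 ± 0.56 to 10.1 ± 1.04 FPKM (adjusted p = 0.043). Lmbrd1, which is needed for the export of vitamin B12 from lysosomes, rose from 6.66 ± 0.14 to 7.89 ± 0.37 FPKM (adjusted p = 0.040). The channel gene Tpcn1 had a log2 fold change of -0.20 (adjusted p = 0.085). Of 18 subunits of the proton pump V-ATPase 0 were called by limma (3 higher and 1 lower at an unadjusted p under 0.05, and 2 higher by limma-voom). Atp6v0b, Atp6ap2 and Tcirg1 came closest, with log2 fold changes of 0.24, 0.21 and -0.14. Of 17 genes that sort enzymes to the lysosome 1 rose and 0 fell (3 and 1 at an unadjusted limma p under 0.05). This was the retromer gene Vps26a, from 37.0 ± 0.58 to 43.9 ± 2.4 FPKM (limma adjusted p = 0.016). Its retromer partner Vps35 and the sorting gene Cln6 had log2 fold changes of 0.19 and -0.19 and did not pass.

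Control of the MiT/TFE factors and the use of lysosomes in autophagy gave 0 calls by limma. Of 21 genes of mTORC1 and related regulators, 2 higher and 1 lower reached an unadjusted p under 0.05, and 1 was higher by limma-voom. The leading genes were Fnip1 and Ppp3cb, with log2 fold changes of 0.24 and 0.15, and Mlst8 with -0.18. Of 27 autophagy genes, 6 higher and 2 lower reached an unadjusted limma p under 0.05, and 2 were higher by limma-voom. The share of all genes at that unadjusted cut was not counted, so these counts cannot be set beside it. Map1lc3a, Atg12 and Optn came first, with log2 fold changes of 0.24, 0.20 and 0.18 and adjusted p of 0.063, 0.068 and 0.083. Of 18 genes of lysosome fusion and positioning, 3 higher and 1 lower reached an unadjusted limma p under 0.05, and 0 were called by limma-voom. Arl8a, Rab7 and Vps39 led that list, with 0.12, 0.11 and -0.16 on the log2 scale.

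Of the cystatins, which inhibit cysteine cathepsins, 2 of 4 could be tested and 1 rose, beside 5.61% of all genes tested. Cst3, the secreted inhibitor cystatin C, had 149, 171 and 187 FPKM in the controls and 212, 215 and 221 FPKM with nattokinase. All nattokinase libraries were above all controls (log2 fold change 0.35, SE 0.074, limma adjusted p = 0.016). Cstb, the inhibitor in the cytosol, had 211 ± 22.9 and 230.2 ± 13.4 FPKM (SD, n = 3 each) and was not called.

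**Figure D5:**
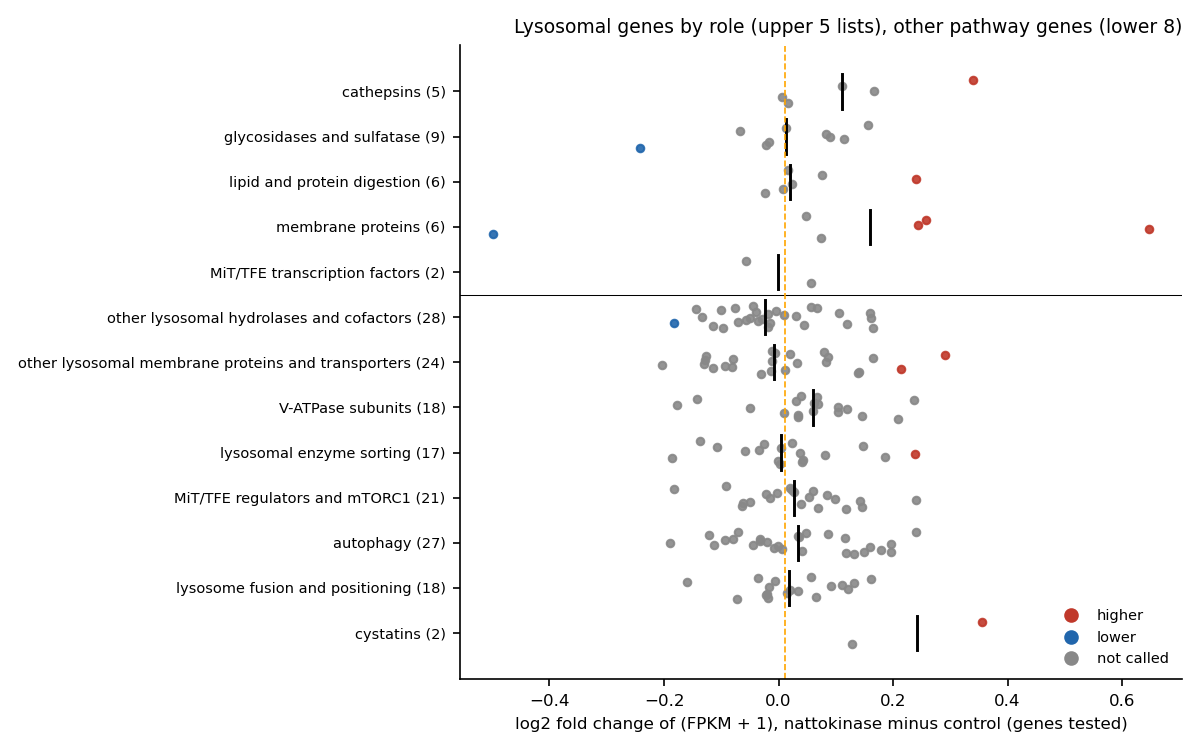
Log2 fold change of FPKM + 1 of each tested gene, for the lysosomal genes by role (upper 5 lists) and for the other genes of the pathway (lower 8 lists), with the number tested in brackets, a black bar at each median and a dashed line at the median of all genes. The V-ATPase, mTORC1, autophagy and fusion lists hold 0 called genes, and the members called lie among the membrane proteins, cathepsins, glycosidases and the digestion group.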

How the data were processed

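RNA of 6 libraries (3 control, 3 nattokinase) was analysed, with groups and replicate numbers from the sample titles. The authors deposited 1 FPKM value per gene and library, a unit found from the values: each value times the merged exon length in GENCODE M21 (GRCm38) gives whole reads after division by 1 constant for the library, within 0.05 for 100% of values above 0. Per the submitters' processing notes the tools included HISAT2 2.1.0, DESeq2 1.22.1, Trimmomatic 0.38 and featureCounts 1.6.0, and the build named is GRCh38, a human build, although the identifiers are from mouse. Strand use is not stated.

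Differences were tested with limma 3.58.1 in R 4.3.3 on log2(FPKM + 1) (two-sided, moderated with a mean-dependent prior fitted robustly), adjusted by Benjamini-Hochberg over the 10913 genes with at least 1 FPKM in 3 libraries. Fold values are ratios of mean FPKM. The scripts were tested on simulated libraries. The members and lists were chosen with earlier results of these data known. All members are reported, and in each pathway list up to 3 tested genes with the smallest p are named. Genes whose exons overlap a member, genes near Scarb2 and the markers were named beside these. Promoter windows are from RefSeq (GRCm38.p6). Alternatives were other pseudocounts, filters and scalings, limma-voom, the replicate block and leaving out each library. Exons of 11 of the 28 tested members overlap another gene.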

Additional observations from a re-analysis of the deposited data

How the results depend on the processing

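With no filter on low values 24549 genes were tested, of which 221 were higher and 109 lower. Of the lysosomal genes 0 were then higher and 1, Scarb2, was lower. Leaving out each library in turn gave 330 to 726 genes higher and 193 to 481 lower, and 2 to 5 lysosomal genes higher and 1 to 1 lower. Over all genes tested, same-numbered libraries did not deviate together from their group means (r of -0.089, -0.044 and -0.059). With 3 libraries a group this cannot decide whether the numbers pair them. With the replicate number as a block 439 genes were higher and 249 lower, and 4 lysosomal genes were higher and 1 lower, Cd63 and Sgsh losing their calls. Rescaling to protein-coding totals gave 478 higher and 497 lower genes, so that 49.0% of calls were higher beside 63.4%, and 4 and 2 lysosomal genes. Median-of-ratios scaling, quantile normalization, pseudocounts of 0.1 and 0.5 and a filter at 0.5 FPKM left 5 lysosomal genes higher and 2 lower, and limma-voom gave 6 and 2. Under the alternatives run, no called lysosomal gene changed direction. The cause of these changes was not tested. With 3 libraries a group, differences of the size seen for Ctsd were near what could be called, and Ctsk, Ctsh, Ctss and Gpnmb, at 17 reads or fewer, could not be compared.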

Other observations

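The neighbourhood of Scarb2 was looked at because Scarb2 was lower, after the values were seen. Of the 12 other tested genes within 500 kb of it on chromosome 5, 2 were called lower and 7 had positive log2 fold changes. Over all genes tested 3.24% were called lower, 5.61% were called higher and 54.1% had positive values. A small nuclear RNA gene, Gm23031, was called higher from 1 to 6 reads per library, and it passed the filter only through the nattokinase libraries. Stbd1, a glycogen-binding protein gene whose product is linked to the delivery of glycogen to lysosomes, starts 96.2 kb beyond the end of Scarb2 (chromosome 5, 92603041 to 92606579, GRCm38). It had 49.7, 54.7 and 56.5 FPKM in the controls and 35.05, 33.2 and 32.7 FPKM with nattokinase, without overlap (log2 fold change -0.65, limma adjusted p = 0.00017). Naaa, the acid amidase gene described above, lies 163 kb on the other side (92257659 to 92278170) and had 13.4, 12.7 and 13.3 FPKM in the controls and 11.3, 11.5 and 11.5 FPKM with nattokinase. Of the 4 tested genes between Naaa and Scarb2, Sdad1, Cxcl10 and Nup54 were not called, with log2 fold changes of 0.06, -0.04 and 0.07, and the other is Gm23031.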
